A study of Mus musculus with 6 samples.

Results

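The transcripts of the Hippo pathway's coactivators, their DNA-binding partners and 4 of their best known target genes were examined in MC3T3-E1 cells, a mouse pre-osteoblast line, with and without metformin. The genes were chosen by name: Yap1 and Wwtr1, which encode the coactivators YAP and TAZ, the TEAD genes Tead1, Tead2, Tead3 and Tead4, and the targets Ankrd1, Amotl2, Ctgf (also named Ccn2) and Cyr61 (also named Ccn1). All 10 were found among the 54532 genes of the deposited table, once each, and all 10 passed the limit of a mean of at least 0.5 FPKM that 12681 genes passed. FPKM is the number of reads of a gene per kilobase of its length, scaled to a common library size.

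Control cells were kept in osteogenic medium, which holds β-glycerophosphate, ascorbic acid and dexamethasone, and metformin cells were kept in the same medium with metformin, a biguanide that lowers blood glucose. The study's methods give 3 days of induction, 0.2 mM metformin and 3 biological replicates per group. Both groups come from 1 cell line and carry no genetic change, and dexamethasone and ascorbic acid were in the medium of both. No sample without osteogenic medium was analysed here.

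YAP and TAZ have no DNA-binding domain of their own and act on genes through the TEAD factors. When the Hippo kinase cascade of MST and LATS is active, YAP and TAZ become phosphorylated and then stay in the cytoplasm or are degraded. A stretched or stiffly attached cell keeps them in the nucleus, and the transcripts of Ctgf, Cyr61, Ankrd1 and Amotl2 are widely read as a measure of that activity. In bone, both coactivators are known to act in the osteoblast lineage, and TAZ binds Runx2. RNA sequencing measures the transcripts and not the location or phosphorylation of the proteins.

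The recovered reads were between 18399861 and 22111790 per sample. Control replicate 1 stood apart from the other controls. Its log2 values had Pearson correlations across genes of 0.96 and 0.952 with them, against 0.988 between control replicates 2 and 3 and at least 0.992 between the metformin samples. Its deviation from the other 2 controls followed the GC content of the transcript, with a Spearman correlation across genes of -0.668. The values of the 10 genes are therefore given with and without that library. Of the markers listed for osteoblasts, all 8 were above the limit, and Col1a1, Col1a2, Ibsp and Spp1 had group means between 265 and 7704 FPKM. Col1a1 and Col1a2 were called higher (log2 differences 0.93 and 0.57) and Ibsp and Spp1 lower (-1.60 and -1.50). Runx2, Sp7, Alpl and Bglap were not called (-0.18, 0.36, -0.16 and -0.28). Of the 6 fits with a sample omitted, Col1a1 stayed called in 3, Col1a2 in 4, and Ibsp and Spp1 in 6. Sp7 was called in 2 of those fits, Bglap in 1, and Runx2 and Alpl in 0. Without control replicate 1, 3 of the 8 markers were called higher and 3 lower, where 23.4% and 20.4% of all tested genes were. Over all alternatives the adjusted p-values by limma reached 0.186 for Col1a1, 0.179 for Col1a2 and 0.198 for Spp1. Without a filter on low values 1 of the 8 was called, as were 2316 of 24801 genes. In bulk RNA, fewer cells of a type and less RNA per cell cannot be told apart.

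All 4 target genes were higher with metformin, and none of them showed an overlap between the groups. By contrast, Yap1, Wwtr1 and 3 of the 4 TEAD genes did not pass the test, and Tead1 passed it with a small margin. In total 5 of the 10 genes were called higher and 0 lower (limma-trend, Benjamini-Hochberg adjusted p under 0.05 over all tested genes), where 13.2% of all tested genes were called higher and 9.28% lower. The lowest metformin sample lay above the highest control for the same 5 genes, as for 23.6% of all tested genes, and Wwtr1 lay entirely below the controls, as 20.5% did. Together 44.1% of all tested genes showed no overlap. The median log2 fold change of the 10 genes was 0.43 and that of all tested genes was 0.0053. Without control replicate 1, 5 were called higher and 1 lower, where 23.4% and 20.4% of all tested genes were. With the replicate number as a block, 4 were called higher and 0 lower, where 9.16% and 5.5% were. Samples of the same number are known to share only that number, and no pairing or batch is given for them. With the GC correction, 5 were called higher and 0 lower, where 16.3% and 19.2% were.

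**Figure D1:**
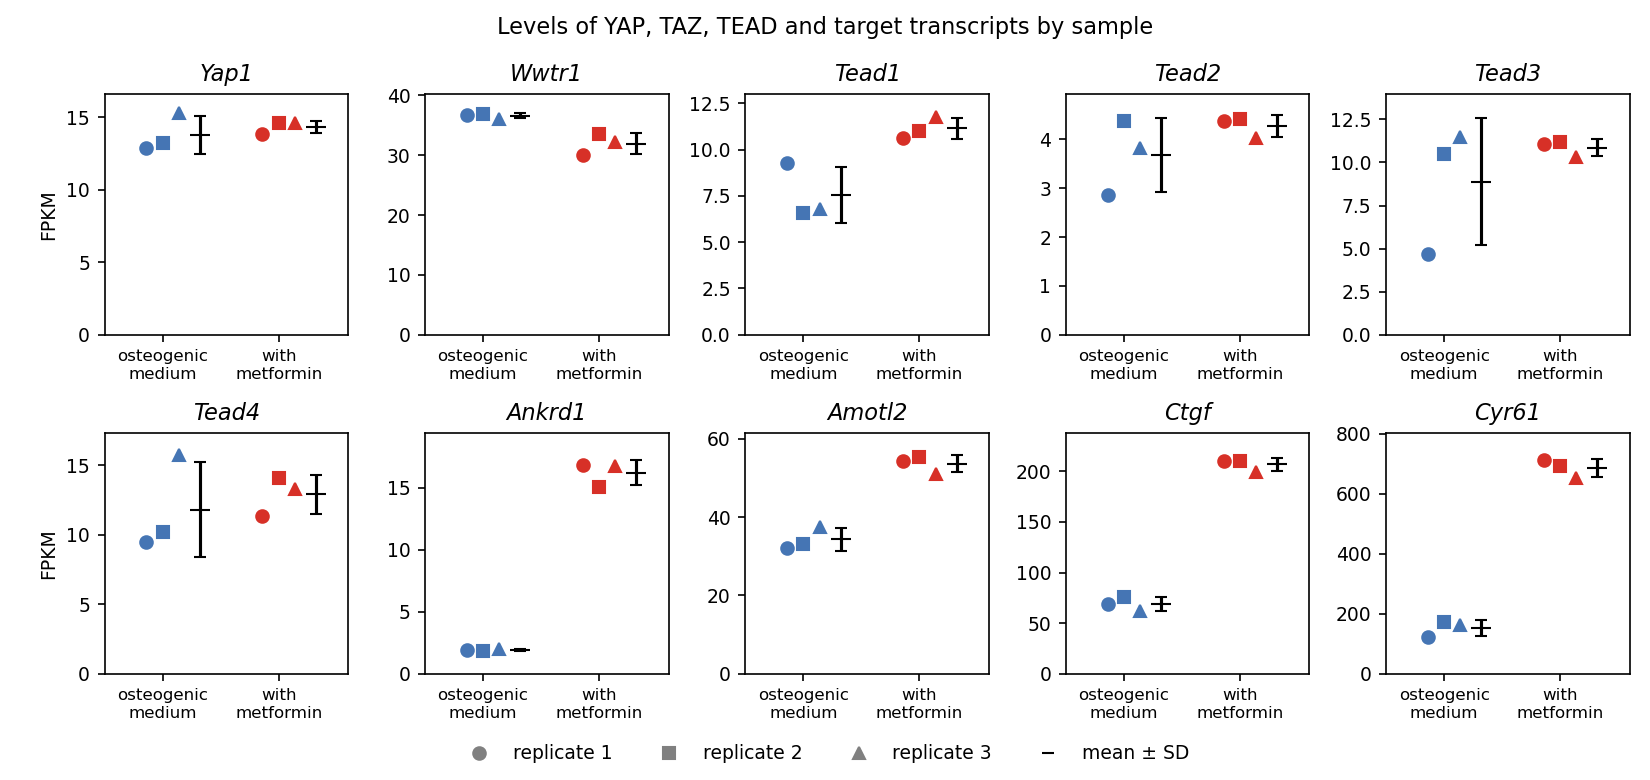
FPKM (vertical axes, from 0, a scale per gene) of the 10 genes in each sample, with the samples of osteogenic medium in blue and those with metformin in red, a symbol per replicate, and black bars for mean ± SD (n = 3). The metformin samples of Ankrd1, Amotl2, Ctgf and Cyr61 lie above every control, and control replicate 1 (circle) lies apart for Tead3 at 4.68 FPKM.

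Cyr61 encodes a secreted matricellular protein that binds integrins. It was the most abundant of the 10 genes per length in both groups. Its level was 121, 172 and 162 FPKM in the control samples and 711, 691 and 653 FPKM in the metformin samples. Every metformin sample was far above every control, and the lowest control value was in replicate 1. The means were 152 ± 27.1 FPKM (SD, n = 3) and 685 ± 29.1 FPKM (SD, n = 3), a ratio of 4.52. On the scale of log2(FPKM + 1) the difference was 2.18 with a standard error of 0.15 (adjusted p = 0.000206 by limma-trend), and without control replicate 1 it was 2.03. Counted from the highest log2 difference down, Cyr61 ranked 56 of 12681. The gene lies on chromosome 3, 145646976 to 145649981, on the minus strand, and 4452 to 7274 reads stood behind each control value.

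Ctgf encodes the related matricellular protein CTGF, known for its part in matrix production and wound repair. Its level was 68.6, 75.6 and 62.2 FPKM in the controls and 211, 211 and 200 FPKM with metformin. The metformin samples lay close to each other and far above the controls. The means were 68.8 ± 6.72 and 207 ± 6.23 FPKM (SD, n = 3 each), a ratio of 3.01. The log2 difference was 1.58 with a standard error of 0.10 (adjusted p = 0.000165 by limma-trend) and was also 1.58 without control replicate 1. Ctgf lies on chromosome 10, 24595442 to 24598683, on the plus strand. The exons of the antisense gene Gm15270 cover 23.2% of its exon bases. Gm15270 itself had 5 to 22 reads per sample, against 3497 reads or more for Ctgf, and the sources used here do not state whether counting used strand.

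Ankrd1 encodes an ankyrin repeat protein of the nucleus and the sarcomere, abundant in heart muscle. It was the rarest of the 10 transcripts in the controls and had the largest relative difference. Its level was 1.89, 1.81 and 1.99 FPKM in the controls and 16.8, 15.1 and 16.8 FPKM with metformin. These values rest on 61, 67 and 69 reads in the controls and on 578 to 590 reads with metformin. The ratio of the means, 1.90 ± 0.090 and 16.2 ± 1.02 FPKM (SD, n = 3 each), was 8.56. On the log2 scale it was 2.57 higher with metformin, with a standard error of 0.082 (limma-trend adjusted p = 6.4e-05). This difference ranked 12 of 12681, counted from the highest down. It is understated by the pseudocount, with 3.03 at a pseudocount of 0.1 and 3.09 by voom on the recovered reads. Without control replicate 1 it was 2.57. Ankrd1 lies on chromosome 19, 36111965 to 36119844, on the minus strand.

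Because Ankrd1 is also a muscle gene, the skeletal muscle markers were read beside it. Myod1 and Myog, which define the skeletal muscle lineage, had 0 reads in all 6 samples. The third, Des, was the only one above 0.5 FPKM, and the sum of the 3 was 1.196 to 1.87 FPKM in the controls and 2.07 to 2.38 FPKM with metformin. The summed haematopoietic markers (Ptprc, Cd68 and Csf1r, with Cd68 alone above 0.5 FPKM) were 1.97 to 2.18 FPKM in the controls and 1.10 to 1.35 FPKM with metformin. Cd68 was called lower (log2 difference -0.49, adjusted p = 0.0102 by limma-trend), while Des was not called (0.37, adjusted p = 0.0771). Both calls depended on the fit, since Des was called higher with the GC correction and Cd68 was not called without metformin replicate 1. Cd68 had 26 to 53 reads per sample. The part of these shifts in the result was not tested. The sums of the chondrocyte markers (Sox9, Col2a1 and Acan), the adipocyte markers (led by Fabp4) and the endothelial markers overlapped between the groups, at 26.6 to 39.9 against 28.7 to 30.4 FPKM, 1.65 to 3.08 against 1.88 to 2.31 FPKM and 0.0589 to 0.106 against 0.0243 to 0.121 FPKM. The chondrocyte overlap came from control replicate 1, since the other controls had sums of 38.9 and 39.9 FPKM. Without that library Sox9 and Col2a1 were called lower (log2 differences -0.42 and -0.32, adjusted p = 0.00190 and 0.0199 by limma-trend), and their part in the results was not tested.

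Amotl2 encodes angiomotin-like 2, a scaffold protein that binds YAP and holds it in the cytoplasm, so it is both a target and an inhibitor. It had 32.2, 33.1 and 37.6 FPKM in the controls and 54.4, 55.3 and 51.1 FPKM with metformin. The groups did not overlap, and the difference was the smallest of the 4 targets. The means were 34.3 ± 2.87 and 53.6 ± 2.20 FPKM (SD, n = 3 each), a ratio of 1.56. The log2 difference was 0.63 with a standard error of 0.093 (adjusted p = 0.00438 by limma-trend) and 0.59 without control replicate 1. Amotl2 lies on chromosome 9, 102716672 to 102733418, on the plus strand. Ankrd1, Amotl2, Ctgf and Cyr61 stayed called whichever of the 6 samples was omitted and under every other alternative run.

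TEAD factors recognise the letters GGAATG, or CATTCC when read on the other strand. These letters were searched on both strands of the 250 bases before the RefSeq transcription starts (build GRCm38.p6). RefSeq windows were found for 7 of the 10 genes, and Ctgf, Tead1 and Tead4 had none in the table used. The windows of the 3 target genes that had one are shown 5′ to 3′ on the gene's strand, with the TEAD letters in capitals, followed by that of Wwtr1, the gene whose samples moved the other way.

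Ankrd1: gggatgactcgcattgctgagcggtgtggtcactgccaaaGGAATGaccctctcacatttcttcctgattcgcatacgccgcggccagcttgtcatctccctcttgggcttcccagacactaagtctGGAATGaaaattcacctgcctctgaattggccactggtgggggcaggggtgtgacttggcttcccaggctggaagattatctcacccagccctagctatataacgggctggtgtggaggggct
Amotl2: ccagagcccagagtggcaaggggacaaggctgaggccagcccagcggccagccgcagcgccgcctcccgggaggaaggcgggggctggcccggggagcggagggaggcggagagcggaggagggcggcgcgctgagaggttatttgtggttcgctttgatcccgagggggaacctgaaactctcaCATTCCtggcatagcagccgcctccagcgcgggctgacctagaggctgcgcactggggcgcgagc
Cyr61: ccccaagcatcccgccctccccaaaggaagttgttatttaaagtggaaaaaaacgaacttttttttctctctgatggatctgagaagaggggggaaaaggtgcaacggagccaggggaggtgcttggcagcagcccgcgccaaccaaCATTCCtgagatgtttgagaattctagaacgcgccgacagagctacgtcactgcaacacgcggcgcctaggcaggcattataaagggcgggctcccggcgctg
Wwtr1: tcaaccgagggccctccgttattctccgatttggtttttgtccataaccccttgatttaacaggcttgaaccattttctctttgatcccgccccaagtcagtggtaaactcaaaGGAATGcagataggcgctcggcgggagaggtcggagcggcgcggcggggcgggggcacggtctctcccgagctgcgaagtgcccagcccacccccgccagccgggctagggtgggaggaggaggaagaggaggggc

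The window of Ankrd1 is chr19:36119845-36120094 on the minus strand and holds the letters 2 times, starting 210 and 123 bases before the start. The window of Amotl2, chr9:102717554-102717803 on the plus strand, holds them 1 time at 65 bases, and that of Cyr61, chr3:145649986-145650235 on the minus strand, 1 time at 103 bases, both on the other strand. The window of Wwtr1, chr3:57575911-57576160 on the minus strand, holds them 1 time at 136 bases. The letters also stand before Yap1 and before 2 of the 3 RefSeq starts of Tead3, and were not in the window of Tead2. Thus 6 of the 7 genes had them in at least 1 window, against 14.4% of 27025 genes in the table and 12.6% of 32851 windows. Of the lists read below, 6 of 21 Hippo regulators with a window had them (28.6%). So did 3 of 12 further genes of a YAP and TAZ signature (25%). The 10 genes were chosen as known members and targets of the pathway, so no conclusion is drawn from these shares. At least 2 copies, as before Ankrd1, stood in 1.02% of windows. The letters were therefore present before RefSeq starts of genes that rose and of genes that did not pass the test. The window of Amotl2 lies inside the span given above for that gene, as do parts of the windows of Tead3. The AP-1 letters TGANTCA, searched on both strands, were in 0 of the 10 windows of these genes and in 6.75% of all windows.

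**Figure D2:**
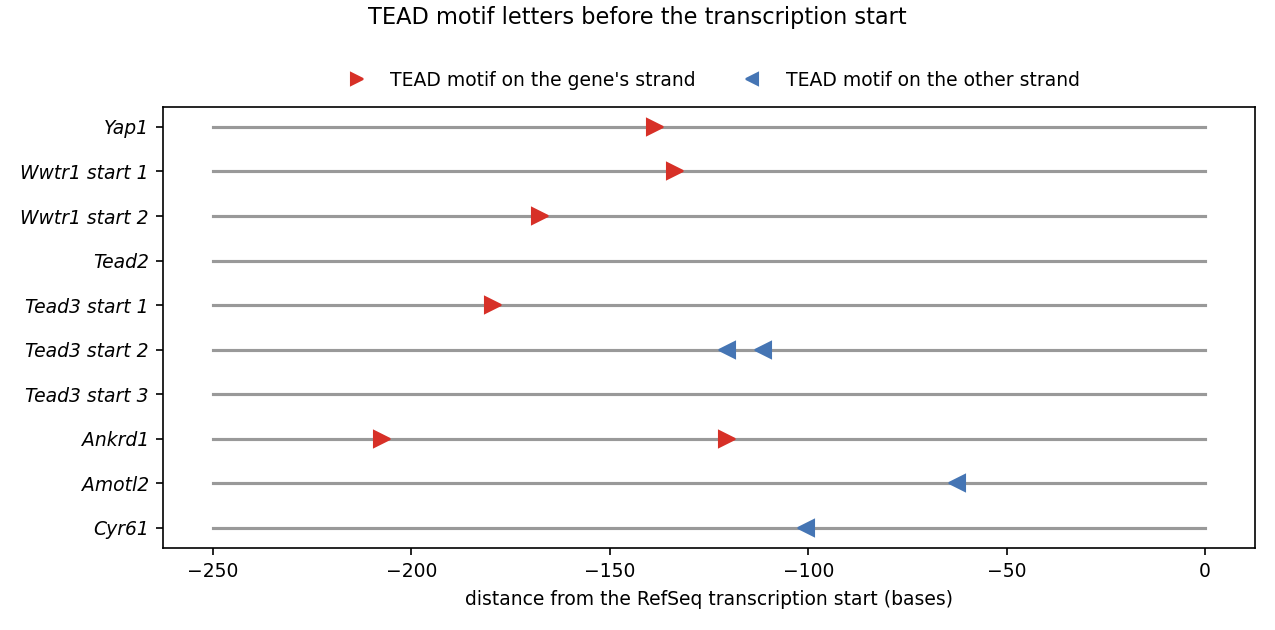
Positions of the TEAD letters in the 250 bases before each RefSeq start (horizontal axis, distance in bases from the start at 0), with 1 line for each of the 10 windows of 7 genes. Red right-pointing triangles mark the letters on the gene's strand and blue left-pointing ones those on the other strand. Ankrd1 has 2 copies, and Tead2 and the third start of Tead3 have none.

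Yap1 encodes YAP and was measured at 12.8, 13.2 and 15.3 FPKM in the controls and at 13.9, 14.6 and 14.6 FPKM with metformin. The metformin samples lay within the range of the controls. Yap1 differed by 0.057 on the log2 scale, with a 95% confidence interval from -0.16 to 0.28 (adjusted p = 0.698 by limma-trend). Without control replicate 1 the value was 0.013 (adjusted p = 0.903), without control replicate 2 it was 0.031 (adjusted p = 0.869) and without control replicate 3 it was 0.13 (adjusted p = 0.288). Yap1 lies on chromosome 9, 7931999 to 8004596, on the minus strand.

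Wwtr1 encodes TAZ and was the more abundant coactivator per length in every sample. It had 36.7, 36.9 and 36.1 FPKM in the controls and 30.1, 33.5 and 32.1 FPKM with metformin. All 3 metformin samples were below all 3 controls. On the log2 scale Wwtr1 differed by -0.19, with a 95% confidence interval from -0.38 to -0.00060 (adjusted p = 0.139 by limma-trend). Without control replicate 1 the log2 difference was -0.19 and the adjusted p was 0.0489, and over all alternatives the adjusted p ranged from 0.0489 to 0.424. Wwtr1 lies on chromosome 3, 57455649 to 57575910, on the minus strand.

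The ratio of Yap1 to Wwtr1, both in FPKM, was 0.350, 0.358 and 0.422 in the controls and 0.460, 0.435 and 0.453 with metformin. Each metformin sample was above each control, with little room between control replicate 3 and metformin replicate 2. The mean ratio was 0.377 ± 0.040 in the controls and 0.449 ± 0.013 with metformin (SD, n = 3 each). The sum of both was 50.3 ± 0.919 and 46.2 ± 2.10 FPKM.

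Tead1 was the TEAD gene that passed the test. It had 9.30, 6.59 and 6.79 FPKM in the controls and 10.7, 11.02 and 11.8 FPKM with metformin. The groups did not overlap, and control replicate 1 was the closest to the metformin samples. The means were 7.56 ± 1.51 and 11.2 ± 0.574 FPKM (SD, n = 3 each), a ratio of 1.48. The log2 difference was 0.52 with a standard error of 0.13 (adjusted p = 0.0335 by limma-trend). This call depended on the samples used. Of the 6 fits with a sample omitted it held in 1, the one without control replicate 1 (log2 difference 0.66, adjusted p = 0.000502). It was lost in the other 5 (adjusted p-values up to 0.125), with the replicate block (adjusted p = 0.0732) and without a filter on low values (adjusted p = 0.0729). Tead1 lies on chromosome 7, 112679318 to 112906807, on the plus strand.

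Tead3 showed how far control replicate 1 could move a value. It had 4.68, 10.5 and 11.5 FPKM in the controls and 11.05, 11.2 and 10.3 FPKM with metformin. Apart from control replicate 1, the samples of both groups were interleaved. Over all samples its log2 difference was 0.34 with a 95% confidence interval from -0.35 to 1.03 (adjusted p = 0.442 by limma-trend), and without control replicate 1 it was -0.017, from -0.18 to 0.14. The longest transcripts of Tead2, Tead3 and Tead4 had 57.9% to 58.1% GC, and all 3 genes were lowest in that library. That of Tead1 had 46.5% GC, and its value in that library was the highest of the controls. Tead3 lies on chromosome 17, 28331671 to 28350817, on the minus strand.

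Tead4 had 9.45, 10.2 and 15.7 FPKM in the controls and 11.4, 14.1 and 13.3 FPKM with metformin. Its values overlapped, with the highest of all in control replicate 3. Its log2 difference was 0.15 with a 95% confidence interval from -0.30 to 0.60 (adjusted p = 0.626 by limma-trend), and it moved to 0.017 without control replicate 1 (adjusted p = 0.945) and to 0.36 without control replicate 3 (adjusted p = 0.0843). Tead2 was the least abundant TEAD gene in every sample, with 2.87, 4.37 and 3.81 FPKM in the controls and 4.38, 4.42 and 4.02 FPKM with metformin. Its log2 difference was 0.18 with a 95% confidence interval from -0.13 to 0.50 (adjusted p = 0.369 by limma-trend), and it was 0.051 without control replicate 1 (adjusted p = 0.631) and 0.29 without control replicate 2 (adjusted p = 0.181). Tead4 lies on chromosome 6, 128224288 to 128300823, on the minus strand, and Tead2 on chromosome 7, 45215753 to 45233644, on the plus strand.

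Added up, the TEAD transcripts came to 26.3, 31.7 and 37.8 FPKM in the controls and to 37.4, 40.7 and 39.4 FPKM with metformin. The groups overlapped, since control replicate 3 exceeded metformin replicate 1. The means were 31.9 ± 5.75 and 39.2 ± 1.66 FPKM (SD, n = 3 each), and without control replicate 1 the control mean was 34.8 FPKM. Tead1 made up 35.4% of the sum in control replicate 1 and 20.8% and 18.0% in the other controls, against 27.1% to 29.9% with metformin. Tead2 made up 10.1% to 13.8% in all 6 samples.

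**Figure D3:**
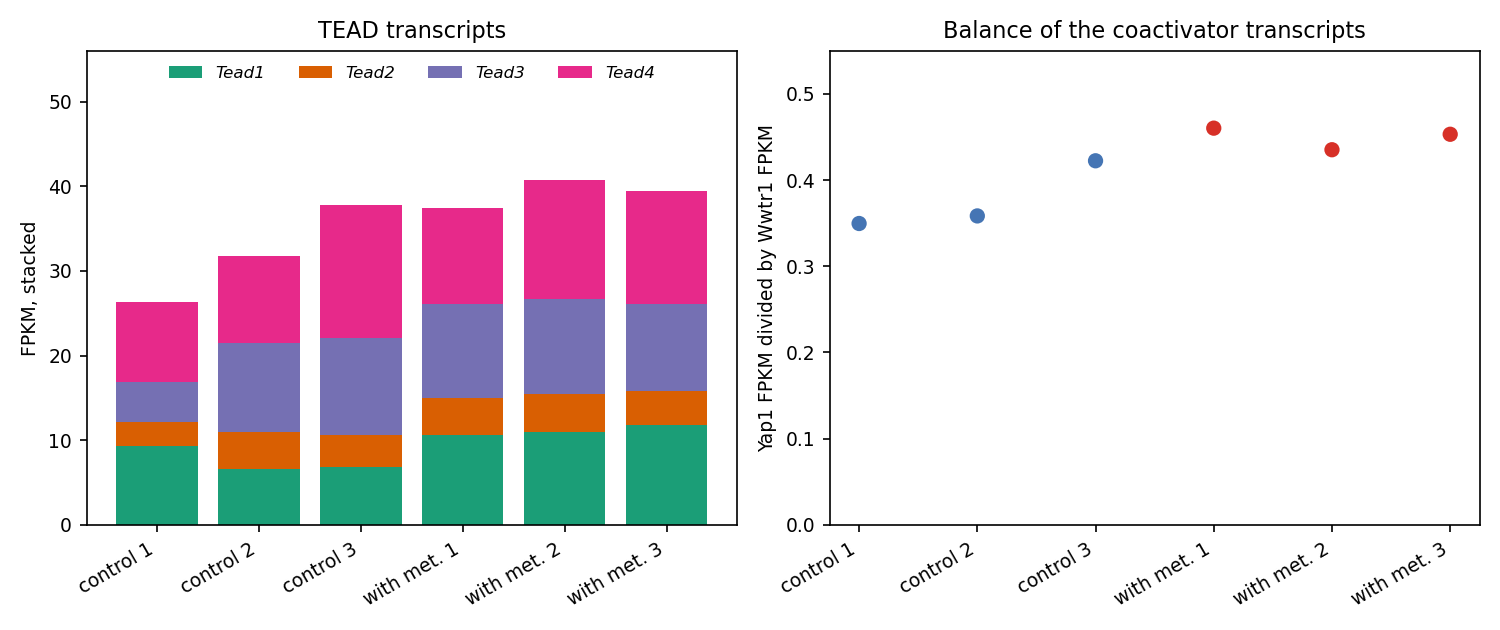
Left, FPKM of the TEAD genes stacked for each sample (bars from 0), and right, the ratio of Yap1 to Wwtr1 FPKM in each sample (blue, osteogenic medium, and red, with metformin). The stacked height is lowest in control replicate 1 at 26.3 FPKM, where Tead3 is small, and the ratio is at least 0.435 in every metformin sample.

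Ordered by level, the controls ran from Cyr61 through Ctgf, Wwtr1, Amotl2, Yap1, Tead4, Tead3, Tead1 and Tead2 down to Ankrd1. The sample ranges of Wwtr1 and Amotl2 overlapped, as did those of each neighbouring pair from Yap1 to Tead1. With metformin, Amotl2 stood above Wwtr1 and Ankrd1 moved from rank 10 to rank 5, above Yap1, without overlap with its neighbours. This place depends on the length used for Ankrd1. The deposited length is 1765 bases, while its exons in GENCODE M21 cover 2886 bases, and a greater length would lower its FPKM in both groups alike. Only Yap1 and Tead4, Tead4 and Tead1, and Tead1 and Tead3 overlapped as neighbours in that group.

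**Figure D4:**
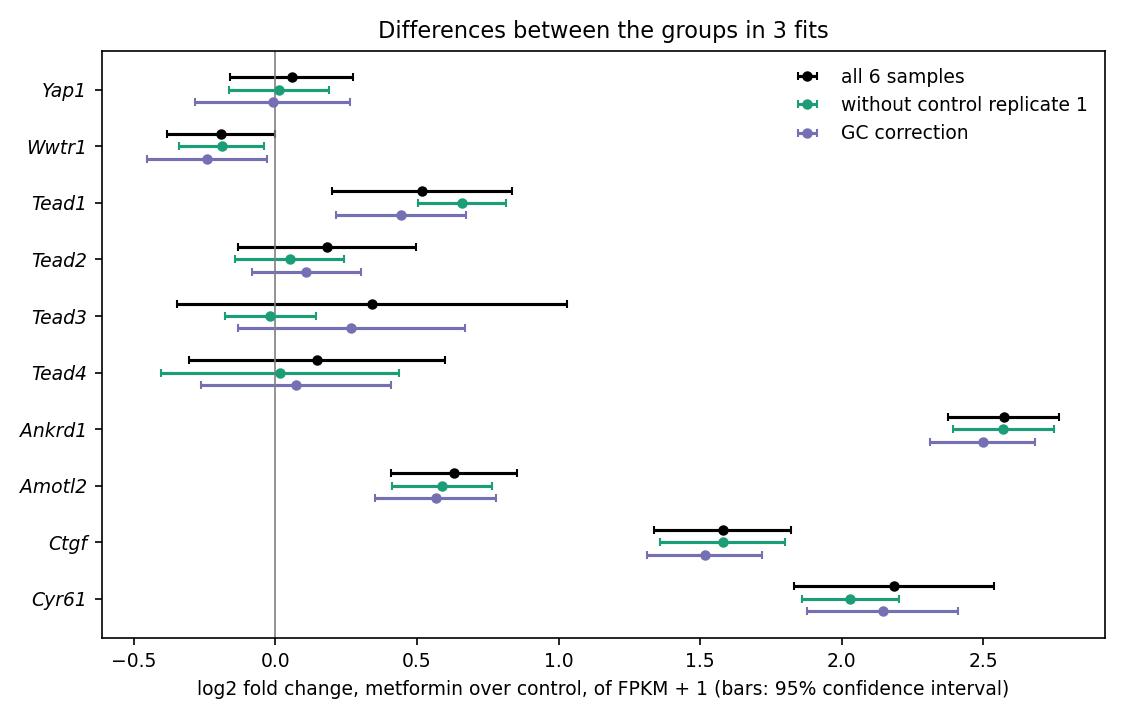
Log2 fold changes of FPKM + 1, metformin over control (horizontal axis), with 95% confidence intervals, for the 10 genes in the fit of all 6 samples (black), without control replicate 1 (green) and after correction for GC content (purple). The targets Ankrd1, Cyr61, Ctgf and Amotl2 stay clear of 0 in all 3 fits, and the interval of Tead3 narrows without control replicate 1.

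Of 25 listed kinases, scaffolds and inhibitors of the Hippo pathway, 23 were tested, 6 were called higher and 1 lower, where 22.5% of all tested genes were called in either direction. Their median log2 fold change was 0.15. None of the 6 higher genes encodes a kinase. They were Ptpn14, a phosphatase that binds YAP (log2 difference 0.62, adjusted p = 0.00784), Nf2, which encodes Merlin (0.56, adjusted p = 0.0228), Wwc2, a KIBRA relative (0.53, adjusted p = 0.00392), the junction scaffold Dlg5 (0.50, adjusted p = 0.0148), the angiomotin gene Amot (0.34, adjusted p = 0.0335) and Frmd6 (0.29, adjusted p = 0.0497), all by limma-trend.

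Ptpn14 had 11.5, 11.8 and 14.5 FPKM in the controls and 19.8, 20.3 and 19.2 FPKM with metformin, and Nf2 had 13.1, 14.5 and 18.4 against 22.8, 23.5 and 22.3 FPKM. Sav1, the adaptor of the MST kinases, was the gene called lower, with 20.8, 25.5 and 26.9 FPKM in the controls and 17.2, 18.0 and 16.0 FPKM with metformin (log2 difference -0.49, adjusted p = 0.0266). The exons of Atl1, on the other strand, cover 25.4% of the exon bases of Sav1. The MST kinase genes Stk3 and Stk4 had log2 differences of 0.29 and 0.18 (adjusted p = 0.242 and 0.219), and the LATS kinase genes Lats1 and Lats2 had 0.034 and -0.20 (adjusted p = 0.908 and 0.186). With the replicate block the genes called were 2, Ptpn14 and Wwc2, and without control replicate 1 they were 14, where 14.7% and 43.8% of all tested genes were called. Lats1, Stk3 and Stk4 were among those 14, with log2 differences of 0.22, 0.46 and 0.26 (adjusted p = 0.0195, 0.00499 and 0.0134 by limma-trend). Ptpn14 and Wwc2 stayed called whichever sample was omitted, Dlg5 in 4 of the 6 fits, Nf2 in 2, and Sav1, Frmd6 and Amot in 1. The exons of Gm49361 cover 42.4% of the exon bases of Lats2.

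TEAD factors also bind the VGLL cofactors, which compete with YAP and TAZ. Vgll1 and Vgll2 had 0 reads in all 6 samples. Vgll3 had 22.8, 18.4 and 16.5 FPKM in the controls and 30.6, 31.6 and 31.2 FPKM with metformin, with no overlap and nearly equal metformin values. Its log2 difference was 0.68 with a standard error of 0.12 (adjusted p = 0.00960 by limma-trend), and it stayed called in 5 of the 6 fits with a sample omitted. Vgll4, a repressor of TEAD, had a log2 difference of -0.089 (adjusted p = 0.563).

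Beyond the 4 targets, 18 further genes of a 22-gene signature of YAP and TAZ activity, drawn up in human tumours, were read in the same fit. Of these 17 were tested, 6 were called higher and 2 lower, beside the 13.2% and 9.28% of all tested genes, and their median log2 fold change was 0.23. Igfbp3 had 0 reads in all samples. Lats2 and Ptpn14 are also among the Hippo regulators, and Ptpn14 is one of the 6. The others were F3, the initiator of blood coagulation, Crim1, a transmembrane protein that binds BMPs, Nuak2, a kinase related to AMPK, Ccdc80, a secreted matrix protein, and Asap1, a regulator of ARF GTPases.

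F3 had 62.2, 59.1 and 49.0 FPKM in the controls and 108, 107 and 109 FPKM with metformin (log2 difference 0.92, adjusted p = 0.00172 by limma-trend). The log2 differences were 0.62 for Crim1 (adjusted p = 0.00203), 0.61 for Nuak2 (adjusted p = 0.0196), 0.49 for Ccdc80 (adjusted p = 0.00814) and 0.36 for Asap1 (adjusted p = 0.0254). The order of F3 and Nuak2 depended on the pseudocount, since Nuak2 was low, with 0.98 against 0.93 for F3 at a pseudocount of 0.1 and 1.04 against 0.94 by voom.

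The 2 lower genes of the signature fell by more than any of its other genes outside the 4 targets rose. Gadd45a, a stress-induced gene of growth arrest and DNA repair, had 26.6, 51.6 and 53.5 FPKM in the controls and 7.83, 9.001 and 9.81 FPKM with metformin. Its log2 difference was -2.13 with a standard error of 0.26 (adjusted p = 0.00216 by limma-trend), and the controls averaged 4.95 times the metformin samples. The exons of E230016M11Rik, on the other strand, cover 19.1% of its exon bases. Nt5e, which encodes the surface enzyme CD73 that makes adenosine, had 9.47, 7.11 and 6.03 FPKM in the controls and 2.06, 2.61 and 2.26 FPKM with metformin (log2 difference -1.35, adjusted p = 0.00162). F3, Crim1, Gadd45a and Nt5e stayed called in all 6 fits with a sample omitted, and Ccdc80, Nuak2 and Asap1 in 4, 3 and 2 of them.

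**Figure D5:**
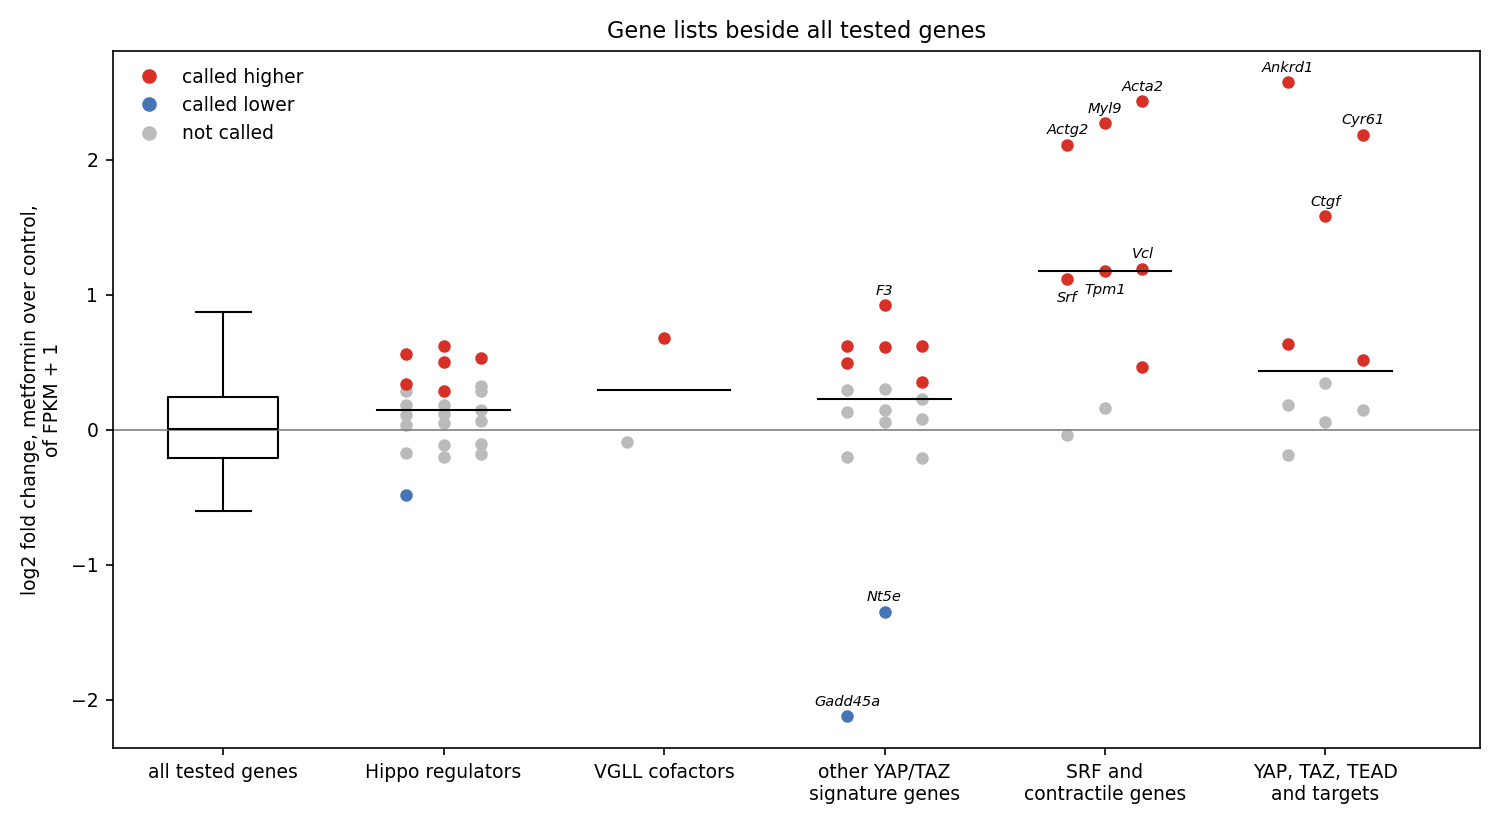
Log2 fold changes of FPKM + 1, metformin over control (vertical axis), for each tested gene of 5 lists, with black lines for the list medians, red for genes called higher, blue for lower and grey for the rest. The box at the left shows the 25th to 75th percentile of all 12681 tested genes with whiskers from the 5th to the 95th, -0.61 to 0.87. Ankrd1, Cyr61 and Ctgf lie above the upper whisker, as do F3, Acta2, Myl9, Actg2, Vcl, Tpm1 and Srf. Gadd45a and Nt5e lie below the lower one.

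Ctgf, Cyr61 and Ankrd1 are also known targets of SRF and its actin-sensing coactivators, so 10 SRF and contractile genes were set beside them. This list, like the other lists, was chosen with earlier results of these data known. No conclusion is drawn from its share of called genes. Of 9 tested, 7 were called higher and 0 lower, beside 13.2% and 9.28% of all tested genes, with Acta2 at 219, 266 and 187 FPKM in the controls and 1213, 1216 and 1182 FPKM with metformin (log2 difference 2.43, adjusted p = 0.000125 by limma-trend) and Myl9, Actg2, Vcl, Tpm1, Srf and Tagln at log2 differences from 0.46 to 2.27. Srf stayed called in 2 of the 6 fits with a sample omitted and Tagln in 3, with adjusted p-values up to 0.103 and 0.0748 by limma. The 0.46 of Tagln became 1.01 at a pseudocount of 0.1 and 1.14 by voom. The coactivator genes Mkl1 and Mkl2 had log2 differences of 0.16 and -0.043 and were not called. Other genes' exons cover 67.9% of the exon bases of Tagln, whose values were 1.06 FPKM or less, and 25.5% of those of Vcl.

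The tested genes most like each called gene, by Pearson correlation of log2(FPKM + 1) over the 6 samples among 7452 genes with a mean of at least 5 FPKM, differed between the targets. They were Acta2, Cdc25b and Ptx3 for Ctgf, Tubb6, Fgfrl1 and Hmgb3 for Cyr61, Hmgb2, Palld and Gfra2 for Ankrd1, Parp1, Srebf2 and Mdc1 for Amotl2, and Pdxdc1, Mdm2 and Wdr36 for Tead1. These correlations ran from 0.995 for Wdr36 to 0.9999 for Tubb6. The 6 samples form 2 groups, so any gene with a clear group difference scores high, and 113 to 151 genes exceeded 0.99 with Ctgf, Cyr61 or Ankrd1 each, 32 with Amotl2 and 10 with Tead1.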

How the data were processed

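MC3T3-E1 cells in osteogenic medium with or without metformin (3 samples each) were sequenced from total RNA with an Illumina TruSeq RNA kit, per the labels. The authors deposited 1 table of FPKM per gene and sample with a gene length, and named no unit. Multiplied by gene length, 100% of the values in each sample fell on whole steps (tolerance 0.01), so the reads were recovered. The library sizes these steps imply are not the summed reads, so the authors had scaled the samples. The submitters' processing notes name Bowtie 0.12.2, mm8 and mm9, while 53499 of the 54532 gene identifiers have the same start and end in GENCODE M21 (GRCm38), the build of the coordinates given here. The counting tool and strand setting are not given in the sources used here.

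Groups came from the sample titles. Comparisons used limma 3.58.1 (R 4.3.3) with an intensity trend. The 12681 genes averaging 0.5 FPKM or more entered as log2(FPKM + 1), with Benjamini-Hochberg adjustment and a threshold of 0.05. A fold change on this scale understates the change of low genes. The fits were tested on simulated data. Alternatives were a pseudocount of 0.1, no filter, a mean of at least 1 FPKM, scaling by total reads or TMM, voom on the recovered reads, the replicate block, a GC correction (natural spline, 5 degrees of freedom, fitted per library; GC known for 99.9% of tested genes), both together, and leaving out each sample. Same-numbered samples are known to share only a number. Every pair of samples differed beyond counting noise (median chi-square per gene at least 1.18, against 0.455). At these depths 3 reads are at most 1.63e-05% of a sample, for counting error only. Exon overlaps were taken from GENCODE M21, and near-identical transcripts of the 10 genes (BLAST+ 2.17.0, 95% over 200 bases) were found for Ctgf alone, with Gm15270 over 347 bases. Figures used matplotlib 3.10.9.

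The genes and lists were chosen with earlier results of these data known. Named are the 10 genes, the called genes of each list, kinases, cofactors and markers named after their values were seen, and the 3 genes most like each called gene. Other per-sample columns numbered 0.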

Additional observations from a re-analysis of the deposited data

How the results depend on the processing

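The 5 of the 10 genes called higher were 4 with the replicate block and with no filter on low values, in both cases without Tead1, and 4 to 5 over the fits that left out one sample. The genes called lower were 0, and 0 to 1 over those fits, with Wwtr1 called without control replicate 1. Over all tested genes, the 1670 higher and 1177 lower became 1161 and 698 with the replicate block, 2062 and 2433 with the GC correction and 1703 and 1888 with both. They were 938 to 2969 higher and 495 to 2590 lower over the fits that left out one sample, with both maxima without control replicate 1. The GC correction moved the median log2 fold change of all tested genes from 0.0053 to -0.039. The 7 Hippo regulators called were 2 with the replicate block and 2 to 14 over the fits that left out one sample, with 14 without control replicate 1. The 8 other signature genes called were 5 to 10 over those fits. The metformin minus control difference was 7.25 FPKM for the summed TEAD genes (4.44 to 10.2 over those fits) and 0.073 for the ratio of Yap1 to Wwtr1 (0.059 to 0.096).

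Among the 48 named genes, signs turned for 6, none of them called. With the GC correction, alone or with the replicate block, the log2 difference was -0.0082 for Yap1 and -0.0013 for Lats1. Over the fits that left out one sample it ranged from -0.017 to 0.55 for Tead3, from -0.076 to 0.22 for Lats1, from -0.10 to 0.34 for Mkl1, from -0.085 to 0.021 for Mkl2 and from -0.91 to 0.12 for Bglap. The cause was not tested. Deviations from the group mean correlated at -0.053, 0.00027 and -0.055 between samples of the same number. These values show no pairing but cannot exclude one, since control replicate 1 enters the mean of the controls and so shapes all their deviations. Of 48 named genes, the replicate block took the call of 9. TMM scaling and scaling by total reads changed the call or sign of none.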
